A study of Mus musculus with 10 samples.

Results

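The tumour necrosis factor (TNF) superfamily of ligands and receptors was read in the lungs of BALB/c mice given the cytokine IL-33 through the nose and in control lungs. A gene was a member when the symbol of its Ensembl identifier was Tnf, Lta, Ltb, Cd40, Cd40lg, Cd27, Cd70, Fas or Fasl, or was Tnfsf or Tnfrsf followed by a digit. That rule found 41 of the 53465 genes counted: 17 ligands, 23 receptors and the antisense transcript Tnfsf13os. There were 5 control libraries and 5 IL-33 libraries of whole lung tissue. The IL-33 mice received 1 μg in 35 μL on each of 5 days, and tissue was taken 24 hours after the last dose. Controls are described as untreated, and whether they received a vehicle is not given, nor are the age and sex of the animals. All mice carried the BALB/c background, with no transgene or deletion named. Nothing in the labels says that each library came from a separate animal, so the p-values measure the spread between these libraries. IL-33 itself is released from barrier cells when they are damaged, and its receptor is carried by group 2 innate lymphoid cells, regulatory T cells and mast cells.

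Most ligands of the superfamily are trimers anchored in the membrane or cut loose from it, and most receptors are membrane proteins with cysteine-rich repeats outside the cell. Some receptors, such as Fas, carry a death domain that recruits caspases, while others bind TRAF adaptors and start NF-kB and MAP kinase signalling. In the lung the family is best known for T cell costimulation (OX40, CD30, CD137, GITR, DR3), for lymphoid tissue formation (lymphotoxins), for B cell survival (BAFF) and for inflammation and death of epithelial cells (TNF, TRAIL).

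Counted reads came to between 8935159 and 13767118 in the control libraries and between 7805175 and 13178798 in the IL-33 libraries. Levels below are CPM (counts of a gene scaled to the same total of counted reads in every library), and levels of different genes are compared only as CPM per kb of exon. Lung markers were present in every library: Sftpc, a surfactant gene, averaged 10661 ± 875 CPM (SD, n = 5) in controls and 10128 ± 809.7 CPM (SD, n = 5) after IL-33. Of 8 alveolar epithelial markers Sftpc was the 1 not called, and the other 7 were lower after IL-33. With a correction for exon length and GC content Sftpc was lower too (log2 -0.67, edgeR adjusted p = 9.92e-05). Reads aligned to several places were 15.0% to 16.2% of records in controls and 19.97% to 22.8% in IL-33 libraries, without overlap, and their part in the results was not tested. The change across all genes was wide. Of 15695 genes that passed the low-count filter, 69.9% were called at an adjusted p under 0.05, with 35.1% higher and 34.8% lower after IL-33.

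Against that background, 38 members passed the filter, and edgeR's quasi-likelihood test, adjusted by Benjamini-Hochberg over all genes, called 23 of them higher and 7 lower after IL-33, with 8 not called. The share of members called in either direction lay near that of all genes, while 23 of 38 higher stood beside a background of 35.1%. At least 2-fold changes were found for 16 members upward, beside 14.5% of all genes, and for 1 member downward, beside 8.79%. In 19 members every IL-33 library lay above every control library and in 6 every one lay below, beside 28.5% and 27.6% of all genes and 56.1% in either direction. The median log2 fold change was 0.79 over the members and -0.01 over all tested genes. Among 15 ligands tested, 9 rose and 1 fell, and among 22 receptors 13 rose and 6 fell. Whole tissue was sequenced, so fewer cells of a type and less RNA per cell cannot be told apart. Cd70, Tnfrsf17 and Tnfsf18 did not pass the filter and are given by their reads.

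**Figure D1:**
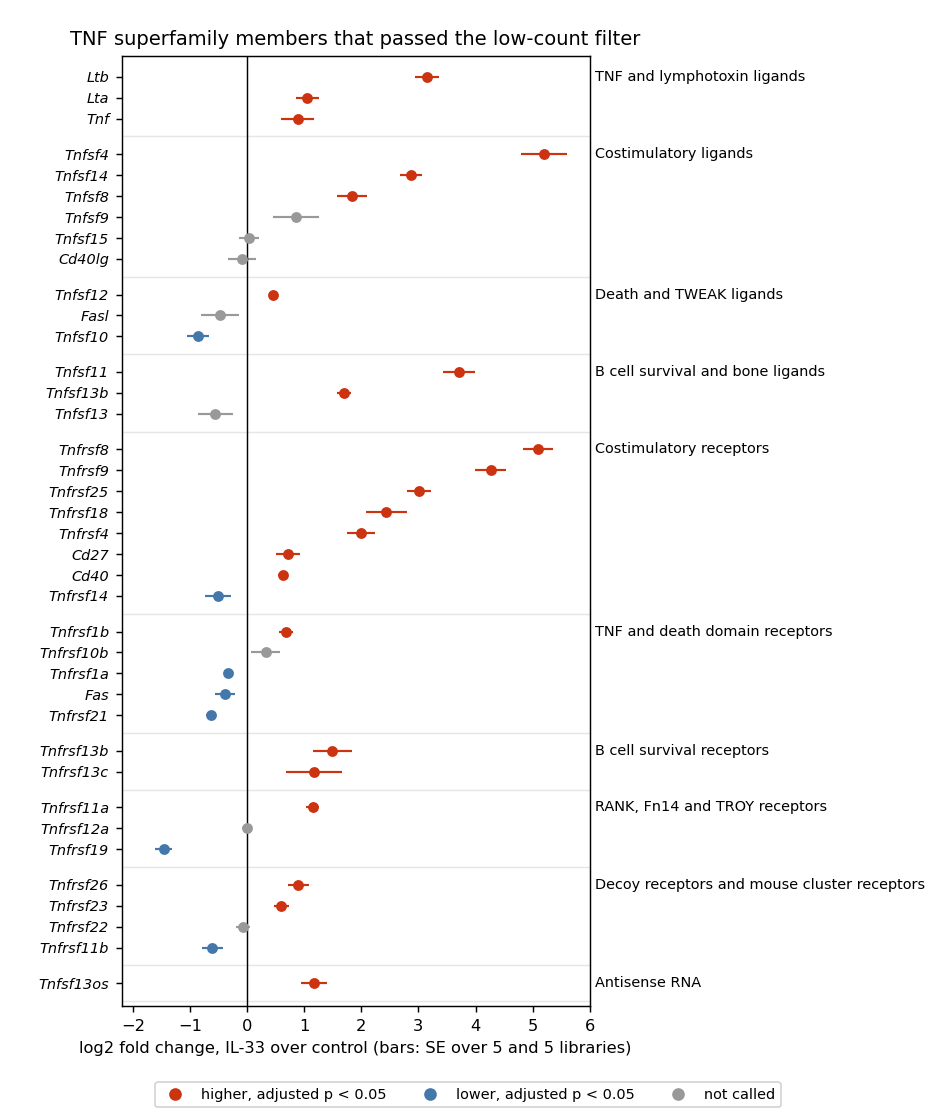
Log2 fold change, IL-33 over control, of the 38 tested members, grouped by role, with the SE over 5 and 5 libraries as bars and the call as colour. Costimulatory receptors and ligands reach from -0.51 to 5.2, while the TNF receptors and the death receptors other than DR3 lie between -0.64 and 0.68.

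The promoters printed here are those of the family that hold a match to the consensus of NF-kB, a transcription factor that acts downstream of the IL-33 receptor and of many receptors of this family. All 4 of these genes rose, beside 23 of 38 tested members and 35.1% of all tested genes. They are not the 4 that rose most. Tnfsf11, which rose more than Ltb and Tnfrsf25, had a window without these letters, and no window was used for Tnfsf4. Whether the letters bear on the rises was not tested. RefSeq windows (GRCm38.p6, from 250 bases before to 50 bases after an annotated start) were available for 30 of the 41 members, in 34 windows. They come from the reference strain and not from BALB/c. The NF-kB consensus was found on either strand in 4 windows, of Ltb, Tnfrsf8, Tnfrsf9 and Tnfrsf25, which is 11.8% of the 34, beside 8.46% of all 32851 windows. Capitals mark the match. Positions count from 0 at the start base.
Ltb (chr17:35194257-35194556, plus strand, match at -87): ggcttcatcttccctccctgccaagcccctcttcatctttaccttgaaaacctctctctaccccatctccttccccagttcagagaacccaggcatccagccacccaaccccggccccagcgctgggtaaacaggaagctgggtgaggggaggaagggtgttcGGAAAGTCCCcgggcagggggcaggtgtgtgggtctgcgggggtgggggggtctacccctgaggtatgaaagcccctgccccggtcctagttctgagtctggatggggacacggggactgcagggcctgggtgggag
Tnfrsf8 (chr4:145315115-145315414, minus strand, overlapping matches at -168 and -167): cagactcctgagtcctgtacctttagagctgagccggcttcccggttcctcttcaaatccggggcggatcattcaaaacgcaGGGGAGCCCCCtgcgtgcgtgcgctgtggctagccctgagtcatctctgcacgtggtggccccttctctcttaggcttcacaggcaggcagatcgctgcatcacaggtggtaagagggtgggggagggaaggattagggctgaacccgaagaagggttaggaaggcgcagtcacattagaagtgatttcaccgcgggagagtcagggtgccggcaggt
Tnfrsf9 (chr4:150927749-150928048, plus strand, overlapping matches at -43 and -42): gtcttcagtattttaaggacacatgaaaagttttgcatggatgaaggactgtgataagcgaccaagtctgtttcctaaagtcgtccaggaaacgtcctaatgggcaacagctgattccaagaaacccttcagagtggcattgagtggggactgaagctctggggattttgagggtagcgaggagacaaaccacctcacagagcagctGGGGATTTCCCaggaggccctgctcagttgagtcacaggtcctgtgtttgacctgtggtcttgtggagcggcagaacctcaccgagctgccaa
Tnfrsf25 (chr4:152116093-152116392, plus strand, matches at -28 and 36): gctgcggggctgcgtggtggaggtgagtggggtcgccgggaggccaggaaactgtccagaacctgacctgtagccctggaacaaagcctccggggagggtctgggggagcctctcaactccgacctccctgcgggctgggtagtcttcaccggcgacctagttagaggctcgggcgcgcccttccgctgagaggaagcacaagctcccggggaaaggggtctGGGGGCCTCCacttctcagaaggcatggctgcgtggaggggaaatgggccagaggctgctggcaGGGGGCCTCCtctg
Another listed start of Tnfrsf9 and another of Tnfrsf25 held no match. The AP-1 letters TGANTCA, read on both strands, occurred in 7 of the 34 windows (20.6%, beside 7.81% of all windows), of Fas, Tnfrsf8, Tnfrsf9, Tnfsf13, Tnfsf13b and Tnfsf14. Of these genes Tnfrsf8, Tnfrsf9, Tnfsf13b and Tnfsf14 rose, Fas was called lower and Tnfsf13 was not called. The GATA letters AGATAA occurred in 1 window, of Tnfsf13b (2.94%, beside 11.2%), and the STAT6-type site in 3, of Lta and Tnfsf13b (8.82%, beside 6.95%). Lta and Tnfsf13b both rose. The short NFAT core GGAAA was in 28 windows (82.4%, beside 61.3%), both of genes that rose, such as Ltb, and of genes that fell, such as Tnfrsf19. Windows of 1 gene can overlap and share a match. The motifs were not searched for overlap with each other, and a match is a string of letters, not a measured binding site.

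Lymphotoxin beta was the most abundant member per kb of exon after IL-33. All 3 ligands of the TNF and lymphotoxin group, encoded side by side on chromosome 17, rose. Ltb (chr17:35194439-35196320, plus strand), which anchors lymphotoxin alpha in the membrane and signals through the lymphotoxin beta receptor, measured 23.8, 13.5, 20.7, 14.2 and 11.7 CPM in control libraries 1 to 5 and 155, 154, 159.6, 147 and 119 CPM in IL-33 libraries 1 to 5. All 5 IL-33 libraries lay far above all 5 controls, with no overlap. Its log2 fold change was 3.15 (SE 0.21, n = 5 and 5, edgeR adjusted p = 1.4e-08), an 8.85-fold rise. Lta, the soluble partner chain, measured 1.16, 1.32, 1.45, 1.14 and 0.767 CPM in control libraries 1 to 5 and 2.31, 1.67, 2.82, 2.92 and 2.2 CPM in IL-33 libraries 1 to 5. These groups did not overlap either, and the rise was 1.05 on the log2 scale (SE 0.20, edgeR adjusted p = 0.000972). Tnf, the founding cytokine of the family, was scarce, at 0.525 to 1.1 CPM in controls and 0.866 to 2.43 CPM after IL-33. Those ranges overlapped. Tnf had a log2 fold change of 0.88 (SE 0.29) with an edgeR adjusted p of 0.0218, and this call ended without control library 4 (adjusted p = 0.0596), without IL-33 library 3 (adjusted p = 0.0573) and after a correction for exon length and GC content (0.46, adjusted p = 0.197).

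Costimulatory ligands, which antigen-presenting cells or T cells display to receptors on T cells, B cells or antigen-presenting cells, split into those that rose and those that did not pass the test. Of 6 tested, 3 rose and none fell. Tnfsf4 (chr1:161395409-161418410, plus strand), the OX40 ligand, measured 0.291, 0.11, 0, 0 and 0 CPM in control libraries 1 to 5 and 3.18, 3.23, 4.1, 4.1 and 4.1 CPM in IL-33 libraries 1 to 5. Controls held 4, 1, 0, 0 and 0 reads, against 33, 29, 32, 52 and 54 reads after IL-33, and the groups did not overlap. The ratio of summed reads, scaled to library size, was 40.5 (95% exact interval 17.1 to 126, covering counting error only), and the fitted log2 fold change was 5.2 (SE 0.41, edgeR adjusted p = 4.3e-07). Most control reads came from library 1: without it 1 control read remained, the ratio was 150.4 (26.7 to 5972) and the fitted log2 fold change 6.66.

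Tnfsf14 (LIGHT, a ligand of HVEM and of the lymphotoxin beta receptor) measured 1.45, 1.43, 1.9, 1.14 and 1.15 CPM in control libraries 1 to 5 and 9.72, 14, 10.8, 8.2 and 8.42 CPM in IL-33 libraries 1 to 5. With no overlap between groups, it rose 7.32-fold (log2 2.87, SE 0.19, edgeR adjusted p = 1.35e-07). After IL-33 it was the most abundant costimulatory ligand per kb, at 5.54 ± 1.28 CPM per kb (SD, n = 5). Tnfsf8, the ligand of CD30, measured 2.54, 1.43, 2.57, 1.31 and 1.34 CPM in control libraries 1 to 5 and 5.0, 6.68, 6.28, 9.15 and 5.54 CPM in IL-33 libraries 1 to 5. It rose 3.57-fold without overlap (log2 1.84, SE 0.26, edgeR adjusted p = 1.72e-05). Tnfsf9, the CD137 ligand, ranged over 0.944 to 3.52 CPM in controls and 1.97 to 5.9 CPM after IL-33, with a log2 difference of 0.85 (SE 0.41) that was not called (edgeR adjusted p = 0.0669). Control library 2, at 3.52 CPM, was its highest control, and without that library Tnfsf9 was called higher (log2 1.22, adjusted p = 0.0104), as it was without IL-33 library 5 (log2 1.0, adjusted p = 0.0399). Tnfsf9 also shares 14.9% of its exon bases with Gm11110 on the opposite strand, whose own reads rose by 1.5 on the log2 scale, and the strand setting of the counting is not given.

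Cd40lg, the T cell ligand of CD40, did not pass the test (log2 -0.09, SE 0.25, edgeR adjusted p = 0.799), with 0.958 to 1.38 CPM in controls and 0.674 to 1.73 CPM after IL-33. With length and GC content corrected, it was called lower, at -0.71 (adjusted p = 0.0413). Tnfsf15 (TL1A), the ligand of DR3, averaged 1.73 ± 0.247 CPM in controls and 1.73 ± 0.424 CPM after IL-33 (SD, n = 5 each), a log2 difference of 0.03 (SE 0.18, edgeR adjusted p = 0.9). The ligands of CD27 and GITR were near the detection limit. Cd70 had no read in any control library and 8, 2, 2, 6 and 0 reads after IL-33, which is at least 6.07-fold higher with the controls set to 3 counts in all. Tnfsf18, the GITR ligand, had 20 reads over the controls and 12 over the IL-33 libraries.

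Among death and TWEAK ligands 1 of 3 fell and 1 rose. Tnfsf10 (chr3:27317028-27342427, plus strand), which encodes TRAIL and triggers death receptors, measured 156, 158, 194, 196 and 179 CPM in control libraries 1 to 5 and 84.8, 60.7, 106, 112 and 118 CPM in IL-33 libraries 1 to 5. All IL-33 libraries lay below all controls, a 1.81-fold fall (log2 -0.86, SE 0.19, edgeR adjusted p = 0.000162). In controls it was the second most abundant member per kb, at 33.5 ± 3.64 CPM per kb (SD, n = 5), and after IL-33 it stood at 18.3 ± 4.46. Fasl, the ligand of Fas on cytotoxic cells, was not called (log2 -0.47, SE 0.33, edgeR adjusted p = 0.16). It was called lower without IL-33 library 5 (log2 -0.72, adjusted p = 0.0433) and after the length and GC correction (-0.87). Tnfsf12 (TWEAK) averaged 30.7 ± 2.98 CPM in controls and 41.4 ± 2.46 CPM after IL-33, with no overlap and a log2 rise of 0.45 (SE 0.07, edgeR adjusted p = 0.000323). With length and GC content corrected, its log2 difference was 0.07 and no longer called, and 48.3% of its exon bases also belong to the read-through gene Tnfsfm13.

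Of the ligands for B cell survival and bone, 2 of 3 rose. Tnfsf11 (chr14:78277445-78308043, minus strand), the RANK ligand needed for osteoclasts and lymph node formation, measured 0.363, 0.22, 0.336, 0.612 and 0.383 CPM in control libraries 1 to 5 and 3.75, 5.56, 6.53, 6.78 and 3.34 CPM in IL-33 libraries 1 to 5. It rose 13.1-fold with no overlap (log2 3.71, SE 0.28, edgeR adjusted p = 3.83e-07). Tnfsf13b, which encodes the B cell survival factor BAFF, measured 24.3, 23, 21.9, 21.3 and 17.8 CPM in control libraries 1 to 5 and 87.1, 56.9, 72.1, 65.4 and 65.3 CPM in IL-33 libraries 1 to 5. Every IL-33 library was again above every control, by 3.25-fold on average (log2 1.7, SE 0.13, edgeR adjusted p = 8.04e-08), and BAFF was the most abundant ligand of the group after IL-33 at 10.1 ± 1.64 CPM per kb. Tnfsf13 (APRIL), the related plasma cell factor, was not called, at -0.56 (SE 0.30, edgeR adjusted p = 0.0638). IL-33 libraries 4 and 5 read 3.86 and 4.02 CPM, within the control range of 3.67 to 4.79 CPM, while IL-33 libraries 1 to 3 lay below it. Without library 4 or without library 5 Tnfsf13 was called lower (adjusted p = 0.0290 and 0.0207). Tnfsfm13 covers 60.0% of its exon bases. The antisense transcript Tnfsf13os, which covers 13.5% of them, measured 2.54, 1.43, 3.47, 1.92 and 2.01 CPM in control libraries 1 to 5 and 4.33, 4.01, 5.51, 5.68 and 5.69 CPM in IL-33 libraries 1 to 5, a log2 rise of 1.17 (SE 0.23, edgeR adjusted p = 0.000298) without overlap. With length and GC content corrected, that rise was 0.57. Tnfsfm13 lies on the same strand as Tnfsf12 and Tnfsf13, so the counting strand would not tell their shared bases apart. Bases shared with the antisense Tnfsf13os cannot be told apart where the counting strand is not given.

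The costimulatory receptors had the highest median log2 fold change of the 9 roles, 2.22, with 7 of 8 higher and 1 lower. Tnfrsf8 (chr4:145267137-145315164, minus strand), which encodes CD30, a receptor of activated lymphocytes, measured 0.508, 0.44, 0.224, 0.262 and 0.479 CPM in control libraries 1 to 5 and 15.1, 18.6, 14, 9.23 and 10.7 CPM in IL-33 libraries 1 to 5. The control libraries held 21 reads in all and the IL-33 libraries 691, with no overlap. It rose 34.1-fold (log2 5.09, SE 0.26, edgeR adjusted p = 1.74e-08). Tnfrsf9 (chr4:150914562-150946102, plus strand), encoding CD137 on activated T cells, measured 1.02, 1.98, 1.68, 0.962 and 1.34 CPM in control libraries 1 to 5 and 41.9, 20.6, 24.6, 21.6 and 20.5 CPM in IL-33 libraries 1 to 5. IL-33 library 1 was the highest by a wide margin, and no library of the groups overlapped. The rise was 19.2-fold (log2 4.26, SE 0.27, edgeR adjusted p = 4.52e-08), and 4.01 on the log2 scale without IL-33 library 1.

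Tnfrsf25 (chr4:152115934-152120119, plus strand), which encodes the death domain receptor DR3 for TL1A on T cells and innate lymphoid cells, measured 3.56, 5.39, 3.47, 2.36 and 3.45 CPM in control libraries 1 to 5 and 31.7, 34.5, 29.2, 25.2 and 23.5 CPM in IL-33 libraries 1 to 5. It rose 8.09-fold with no overlap (log2 3.02, SE 0.21, edgeR adjusted p = 2.93e-08) and was the most abundant costimulatory receptor after IL-33, at 12.7 ± 1.99 CPM per kb (SD, n = 5). Tnfrsf18, the GITR gene, measured 3.49, 2.42, 3.13, 1.05 and 1.82 CPM in control libraries 1 to 5 and 18, 16.1, 11.7, 9.23 and 8.95 CPM in IL-33 libraries 1 to 5. The groups did not overlap (log2 2.44, SE 0.36, edgeR adjusted p = 9.85e-06). On the opposite strand Gm16008 covers 27.2% of the exon bases of Tnfrsf18, and its reads fell by 0.90 on the log2 scale. Tnfrsf4, encoding OX40 and lying 9.55 kb from Tnfrsf18, measured 1.82, 2.09, 2.69, 2.27 and 1.15 CPM in control libraries 1 to 5 and 10.6, 8.12, 7.05, 8.04 and 5.46 CPM in IL-33 libraries 1 to 5. It rose 3.99-fold (log2 2.0, SE 0.25, edgeR adjusted p = 6.68e-06), again with no overlap.

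The remaining 3 costimulatory receptors moved less. Cd27, found on resting and memory lymphocytes, averaged 6.75 ± 2.17 CPM in controls and 11 ± 0.919 CPM after IL-33 (SD, n = 5 each), a log2 rise of 0.72 (SE 0.21, edgeR adjusted p = 0.00359) with one control library inside the IL-33 range. Cd40, carried by B cells and antigen-presenting cells, measured 21.4, 16.2, 21, 18 and 18.1 CPM in control libraries 1 to 5 and 28.7, 27.3, 31.1, 27.2 and 30.1 CPM in IL-33 libraries 1 to 5. These did not overlap, and the rise was 0.63 (SE 0.09, edgeR adjusted p = 3.12e-05). Tnfrsf14 (HVEM), the most abundant of the role in controls at 8.55 ± 1.39 CPM per kb, measured 13.7, 10.8, 9.96, 12.2 and 14.8 CPM in control libraries 1 to 5 and 9.62, 4.79, 9.74, 8.52 and 9.94 CPM in IL-33 libraries 1 to 5. All IL-33 libraries were below all controls. It fell by 0.51 on the log2 scale (SE 0.22, edgeR adjusted p = 0.0197), the only fall in the role.

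Markers of several lymphoid cell types moved with these genes. Summed over 8 T cell markers the level was 60.6 to 111 CPM in controls and 155 to 214 CPM after IL-33, and 7 of the 8 rose. Their log2 fold changes were uneven, from 0.40 for Cd247, the marker not called, to 1.93 for Cd3g. With the correction for exon length and GC content the rise of Trac went from 0.74 to 0.008 and was no longer called, while Cd247 was called higher at 0.53. The 4 regulatory T cell markers all rose, from 16.4 to 23.1 CPM in controls to 167 to 305 CPM after IL-33. The 8 markers of group 2 innate lymphoid cells also all rose, from 99.3 to 136 CPM in controls to 703 to 984 CPM after IL-33, with Il13 at 0 in some control libraries. Rora made up most of the control sum, at 93 ± 13.7 CPM in controls and 205 ± 36.6 CPM after IL-33 (SD, n = 5 each). The log2 fold changes of these markers ran from 1.16 for Rora to 8.97 for Il13, with a median of 5.03. Of 5 natural killer cell markers tested none was called, with sums of 36.8 to 101 CPM in controls and 38.3 to 62.6 CPM after IL-33. Klra8, the other marker, was too scarce to test, at 0 in all IL-33 libraries and in all controls but library 1. The part of these cell types in the rise of the costimulatory receptors was not tested beyond the ratios to T cell markers given below, and regulatory T cells and innate lymphoid cells express several of the same receptors.

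**Figure D2:**
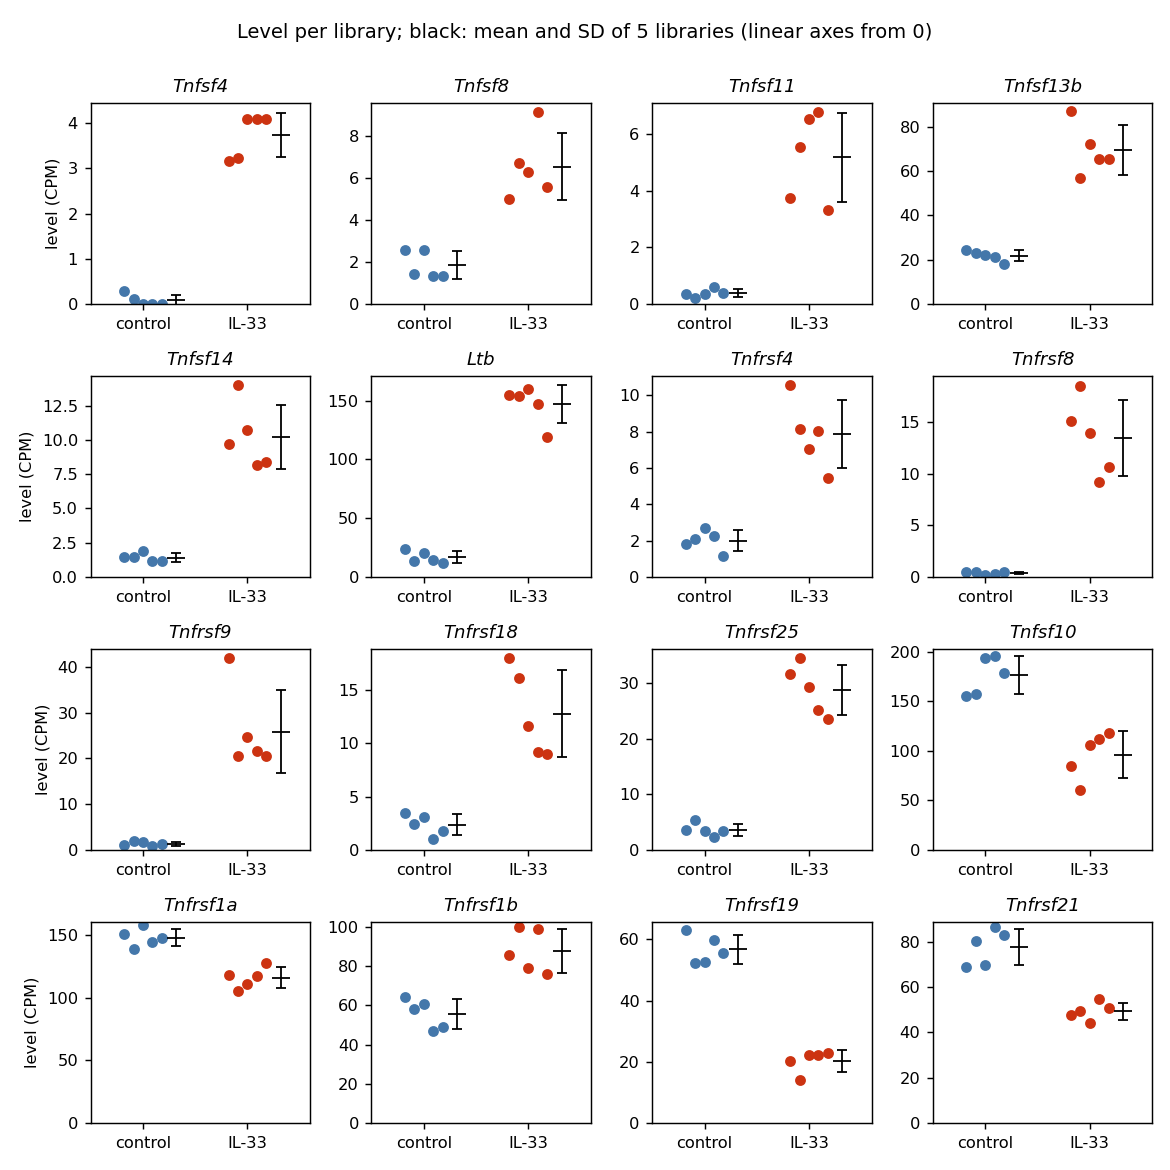
Level in CPM of 16 members in each library, control in blue and IL-33 in red, on linear axes from 0, with the mean and SD of 5 libraries in black. All 16 members, picked for display, are separated without overlap, with Tnfsf10, Tnfrsf1a, Tnfrsf19 and Tnfrsf21 lower after IL-33 and the other 12 higher. Of the 38 tested members 13 overlapped between groups, and 56.1% of all genes did not overlap.

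The TNF receptors, Fas, DR6 and the TRAIL receptor formed the next role, which leaves out the death domain receptor DR3, described above with the costimulatory receptors. Of these 5, 1 rose, 3 fell and 1 was not called. Tnfrsf1a (chr6:125349362-125362484, plus strand), the widely expressed TNF receptor with a death domain, measured 151, 139, 158, 144 and 148 CPM in control libraries 1 to 5 and 118, 105, 111, 117 and 127 CPM in IL-33 libraries 1 to 5. It was the most abundant member per kb in controls, at 57.1 ± 2.71 CPM per kb (SD, n = 5). All IL-33 libraries lay below the controls, a fall of 0.33 on the log2 scale (SE 0.06, edgeR adjusted p = 0.000297). Tnfrsf1b, the TNF receptor of leukocytes and endothelium, which lacks a death domain, moved the other way, from 46.8 to 64.4 CPM to 76.1 to 99.9 CPM. It rose by 0.68 (SE 0.12, edgeR adjusted p = 0.0001), without overlap. Tnfrsf21 (DR6, a death receptor studied in neurons and T cells) fell from 68.9 to 86.6 CPM to 44.1 to 54.6 CPM (log2 -0.64, SE 0.08, edgeR adjusted p = 1.47e-05), also without overlap. Fas, the receptor of Fas ligand, was called lower at -0.38 (SE 0.17, edgeR adjusted p = 0.0248), but 33.2 to 51.1 CPM in controls overlapped 22.5 to 36.3 CPM after IL-33. That call ended in turn without control library 4 (adjusted p = 0.05002), control library 5 (0.0590), IL-33 library 2 (0.0579) and IL-33 library 3 (0.0534), and held at -0.77 after the length and GC correction. Tnfrsf10b, the mouse receptor of TRAIL, was not called (0.32, SE 0.25, edgeR adjusted p = 0.195).

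Receptors of the B cell survival factors were higher. Tnfrsf13b (TACI), which binds BAFF and APRIL, measured 14.5, 3.74, 8.62, 8.48 and 5.46 CPM in control libraries 1 to 5 and 20.9, 25.5, 22, 18.7 and 27.6 CPM in IL-33 libraries 1 to 5. The lowest IL-33 library was above the highest control, and the rise was 2.8-fold (log2 1.49, SE 0.34, edgeR adjusted p = 0.000205). After IL-33 it was the most abundant of the 3 at 8.09 ± 1.27 CPM per kb. Tnfrsf13c, the BAFF receptor of mature B cells, measured 13.3, 2.09, 4.81, 6.3 and 3.55 CPM in control libraries 1 to 5 and 13, 22.9, 10.9, 8.91 and 13.1 CPM in IL-33 libraries 1 to 5. Control library 1, at 13.3 CPM, was higher than 4 of the IL-33 libraries. The rise of 1.17 (SE 0.49) had an edgeR adjusted p of 0.0169 and ended without IL-33 library 2 (log2 0.91, adjusted p = 0.0508) and with the length and GC correction (0.85, adjusted p = 0.0603). Without control library 1 it was 1.70. Tnfrsf17 (BCMA), a marker of plasma cells, had 4 reads over the controls and 62 over the IL-33 libraries, a ratio of 15.7 (95% exact interval 5.83 to 59.4, counting error only), and every IL-33 library was higher than every control. Without the low-count filter edgeR gave Tnfrsf17 a log2 fold change of 3.79 (adjusted p = 2.83e-05) and Cd70 one of 4.91 (adjusted p = 0.00274), both of which depend on the prior count.

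Levels of B cell markers varied widely between controls. Summed over 8 B cell markers the level was 65.5 to 405 CPM in controls and 324 to 479.5 CPM after IL-33, lowest in control library 2 and highest in control library 1, the same libraries that were lowest and highest for Tnfrsf13b and Tnfrsf13c. Of the 8 markers 5 rose. Plasma cell markers summed to 479.5 to 539 CPM in controls and 641 to 1139 CPM after IL-33, with 5 of 7 higher and 1 lower. Xbp1 (256 ± 21.1 CPM) and Sdc1 (205 ± 10.7 CPM) made up most of the control sum. After IL-33 they stood at 304 ± 9.25 and 159 ± 9.41 CPM, Sdc1 being the marker that fell. Jchain, Mzb1, Derl3 and Irf4 rose 21.0, 15.6, 8.31 and 6.1-fold, and Prdm1 was not called. Relative to the summed B cell markers the differences were 0.42 for Tnfrsf13b (adjusted p = 0.0541), 0.19 for Tnfrsf13c (0.378) and -0.58 for Cd40 (0.227) on the log2 scale, by a two-sided exact permutation test over libraries adjusted over all genes. None of these 3 ratios passed and all overlapped between groups, beside 2.08% of all genes above and 27.5% below without overlap. Without control library 2 the ratio of Tnfrsf13b passed (log2 0.54, permutation adjusted p = 0.0253), and without control library 1 the log2 ratio Cd40 over B cells did (-0.84, permutation adjusted p = 0.0211).

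Of RANK, Fn14 and TROY, which serve epithelium, stroma and bone as well as immune cells, one rose and one fell. Tnfrsf11a (RANK), the receptor of the RANK ligand, measured 9.01, 9.12, 9.96, 10.2 and 9.58 CPM in control libraries 1 to 5 and 23.1, 16.8, 17.6, 22.3 and 24.6 CPM in IL-33 libraries 1 to 5. It rose 2.22-fold without overlap (log2 1.15, SE 0.12, edgeR adjusted p = 1.62e-06). Tnfrsf12a (Fn14), the TWEAK receptor and most abundant of the 3 after IL-33 at 9.1 ± 0.993 CPM per kb, measured 16.6, 19.2, 17.3, 17.7 and 18.9 CPM in control libraries 1 to 5 and 17.9, 20.3, 16.9, 17.9 and 14.9 CPM in IL-33 libraries 1 to 5. The groups overlapped and the log2 difference was -0.01 (SE 0.08, edgeR adjusted p = 0.94). With length and GC content corrected, Fn14 was called lower at -0.28 (adjusted p = 0.0116). Tnfrsf19 (chr14:60963875-61046490, minus strand), the gene of TROY, a receptor known in skin and the nervous system, measured 63.2, 52.4, 52.7, 59.7 and 55.5 CPM in control libraries 1 to 5 and 20.2, 13.9, 22.2, 22.1 and 22.8 CPM in IL-33 libraries 1 to 5. Its 2.76-fold fall was the largest among the tested members (log2 -1.47, SE 0.14, edgeR adjusted p = 1.44e-07), with all IL-33 libraries below all controls. TROY was the most abundant of the 3 receptors in controls at 12 ± 0.984 CPM per kb and stood at 4.27 ± 0.772 after IL-33. Alveolar epithelial markers summed to 17093 to 19964 CPM in controls and 12691 to 15465 CPM after IL-33, with 7 of 8 lower. Endothelial markers summed to 4680.0 to 5041 CPM in controls and 2238 to 3155 CPM after IL-33, with 5 of 8 lower. Their part in the falls of Tnfrsf19, Tnfsf10, Tnfrsf21 and Tnfrsf1a was not tested.

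Decoy receptors, which bind ligand without signalling, and a cluster of mouse receptors on chromosome 7 completed the family. Tnfrsf11b (osteoprotegerin), the soluble decoy for the RANK ligand, fell from 5.28 to 9.59 CPM to 3.84 to 5.2 CPM without overlap (log2 -0.61, SE 0.18, edgeR adjusted p = 0.00793). Tnfrsf26, the most abundant of the role after IL-33 at 3.52 ± 0.696 CPM per kb, measured 7.63, 5.61, 6.72, 4.29 and 6.42 CPM in control libraries 1 to 5 and 10.01, 9.9, 15.2, 10.4 and 11 CPM in IL-33 libraries 1 to 5. It rose by 0.89 on the log2 scale without overlap (SE 0.18, edgeR adjusted p = 0.000352). Tnfrsf23 rose by 0.59 (SE 0.13, edgeR adjusted p = 0.00412), although IL-33 library 1 lay within the control range. Tnfrsf22 was not called (-0.08, SE 0.12, edgeR adjusted p = 0.625). Both encode decoy receptors for TRAIL and are near copies: 20.8% of the 75-base windows of Tnfrsf22 and 13.7% of those of Tnfrsf23 occur in another gene, so their separate values are uncertain.

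Per kb of exon the order of levels changed between groups. In controls Tnfrsf1a (57.1 ± 2.71 CPM per kb, SD, n = 5), Tnfsf10 (33.5 ± 3.64), Tnfsf12 (20.3 ± 1.97), Fas (19.8 ± 3.67) and Tnfrsf21 (18.9 ± 1.94) led the members found by the symbol rule. The last 3 lay within 1 SD of each other. The level of Tnfsf12 is uncertain, since it shares 48.3% of its exon bases with Tnfsfm13. Ltb stood the eighth, at 11.1 ± 3.43. After IL-33 Ltb led these members at 96.9 ± 10.7, followed by Tnfrsf1a at 44.7 ± 3.24, Tnfsf12 at 27.3 ± 1.63, Tnfrsf1b at 23 ± 2.91 and Tnfsf10 at 18.3 ± 4.46 CPM per kb. Ltbr, a family gene that the rule leaves out, stood at 36.3 ± 1.61 CPM per kb in controls and 31 ± 0.978 after IL-33. The largest fold changes belonged to scarce transcripts: Tnfrsf8 had 0.111 ± 0.0377 and Tnfsf4 0.0435 ± 0.0689 CPM per kb in controls, and 3.91 ± 1.07 and 2.03 ± 0.267 after IL-33.

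In most tested pairs the ligand and its receptor, or the paired receptors, did not change in step. For 17 of 20 listed pairs both genes passed the filter, and the log2 ratio of CPM + 0.1 was compared between groups by a two-sided exact permutation test over libraries, whose smallest p here is 0.00794, adjusted over the 17 pairs. The ratio differed in 13. Pairs of unrelated genes were not computed for comparison, and 69.9% of all genes were called in their own levels. With this pseudocount the RANK ligand gained most, over its decoy: the log2 ratio Tnfsf11/Tnfrsf11b was -3.90 ± 0.33 in controls (SD, n = 5) and 0.13 ± 0.51 after IL-33 (SD, n = 5), a difference of 4.03 (SE 0.27, exact permutation, adjusted p = 0.0135). Over its receptor RANK the gain was 2.35 (SE 0.33). Both ratios were separate between groups. Lymphotoxin beta gained 3.39 (SE 0.19) over its receptor gene Ltbr, which fell by 0.21 on the log2 scale, and LIGHT gained 3.32 (SE 0.38) over HVEM. The order rests on the pseudocount, with Tnfsf11 at 0.22 to 0.612 CPM in controls. With 1 CPM in place of 0.1 CPM all 4 passed, but Ltb/Ltbr was the largest log2 ratio difference at 3.32, before 2.71 for Tnfsf14/Tnfrsf14, 2.64 for Tnfsf11/Tnfrsf11b and 1.1 for Tnfsf11/Tnfrsf11a.

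In 3 other pairs the receptor gained over the ligand. The log2 ratio of the CD137 ligand to CD137 (Tnfsf9/Tnfrsf9) went from 0.25 ± 0.45 to -3.06 ± 0.92 (SD, n = 5 each), a difference of -3.32. For CD30 (Tnfsf8/Tnfrsf8) the difference was -3.01 (SE 0.41), and for DR3 (Tnfsf15/Tnfrsf25) it was -3.01 (SE 0.28). None of the 3 overlapped between groups. With 1 CPM as pseudocount they were -2.89 (Tnfsf9/Tnfrsf9), -1.95 (Tnfsf8/Tnfrsf8) and -2.71 (Tnfsf15/Tnfrsf25), and passed. The OX40 ligand gained 2.71 (SE 0.50) over OX40, a value that rests on the pseudocount, since with 1 CPM in place of 0.1 CPM it was 0.58 and not called. The balance of the TNF receptors moved by 1.01 (SE 0.14) toward Tnfrsf1b, without overlap, and TWEAK gained 0.47 (SE 0.12) over Fn14. Ratios that overlapped but passed were those of Tnf to Tnfrsf1a (1.15), TRAIL to its receptor (-1.25, Tnfsf10/Tnfrsf10b) and CD40 ligand to CD40 (-0.77). The call for CD40 ligand ended when any library but control 3 or IL-33 library 4 was left out (adjusted p up to 0.0934 for the log2 ratio Cd40lg/Cd40). That for TRAIL ended without any of IL-33 libraries 1 to 4 (log2 ratio Tnfsf10/Tnfrsf10b, adjusted p up to 0.0623). Tnf to Tnfrsf1b (0.14), Fasl to Fas (-0.20) and BAFF to Tnfrsf13c (0.29) and Tnfrsf13b (0.06) did not pass.

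**Figure D3:**
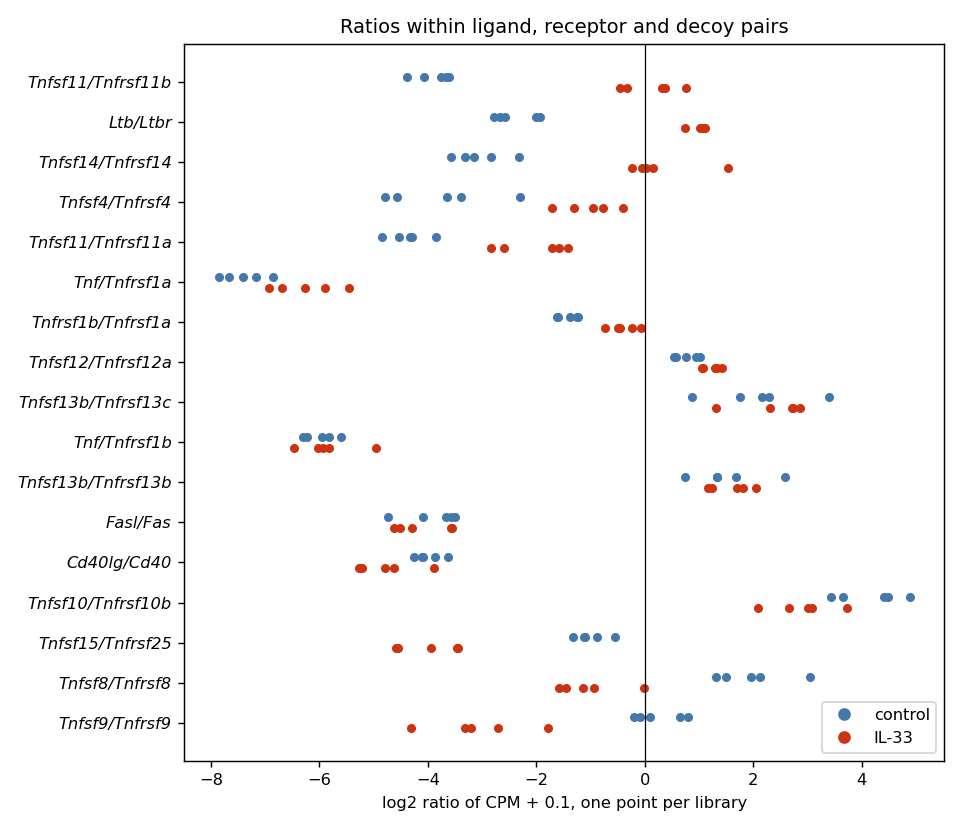
Log2 ratio of CPM + 0.1 within 17 ligand, receptor and decoy pairs, with 1 point for each control (blue) or IL-33 (red) library. The ratios at the top moved toward the first gene of the pair, by up to 4.03, and those at the bottom toward the second, by up to -3.32.

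Since T cell markers were higher after IL-33, members known in T cells were also set against the sum of the 8 T cell markers in each library. For 22 such ratios, over T cell, B cell or macrophage markers, the exact permutation test was adjusted over the same ratio of all 15695 genes, and 17 passed. That count takes both directions and all marker sums together, and the share of all genes that passed was not counted. Shares of all genes without overlap are given with each marker sum. Relative to T cell markers 4.49% of all genes were higher and 66.4% lower without overlap. 7 of the 13 members set against them stood above: Tnfrsf8 by 3.67 on the log2 scale (12.7-fold), Tnfrsf9 by 2.95, Tnfsf11 by 2.29, Ltb by 2.01, Tnfrsf25 by 1.83, Tnfsf14 by 1.61 and Tnfrsf18 by 1.27 (exact permutation, adjusted p = 0.0112 each). None of the 7 overlapped between groups, and with a pseudocount of 1 CPM all 7 passed as well, but with smaller values for the scarce genes: 2.21 for Tnfrsf8, 2.3 for Tnfrsf9, 0.98 for Tnfsf11, 1.05 for Tnfsf14 and 0.88 for Tnfrsf18 (log2 ratios over T cells). For CD30 the log2 ratio ran from -8.42 to -6.81 in controls and -4.36 to -3.20 after IL-33, and for Ltb from -2.54 to -2.12 in controls and -0.46 to -0.15 after IL-33. OX40 (0.78, permutation adjusted p = 0.0208) and the CD30 ligand Tnfsf8 (0.65, 0.0392) passed with overlap, and both calls ended with a pseudocount of 1 CPM. Without IL-33 library 1 that of OX40 ended as well (permutation adjusted p = 0.0510 for the log2 ratio Tnfrsf4 over T cells).

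Lta did not differ past the threshold relative to the markers (-0.18, permutation adjusted p = 0.461), and with a pseudocount of 1 CPM the log2 ratio Lta over T cells was lower, at -0.52 (permutation adjusted p = 0.0202). Cd27, which had risen in CPM, was lower relative to them by -0.40, Cd40lg by -1.32 and Fasl by -1.76 (exact permutation, adjusted p = 0.0112 each), all without overlap. These 3 lie in the direction that most genes took against the marker sum.

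**Figure D4:**
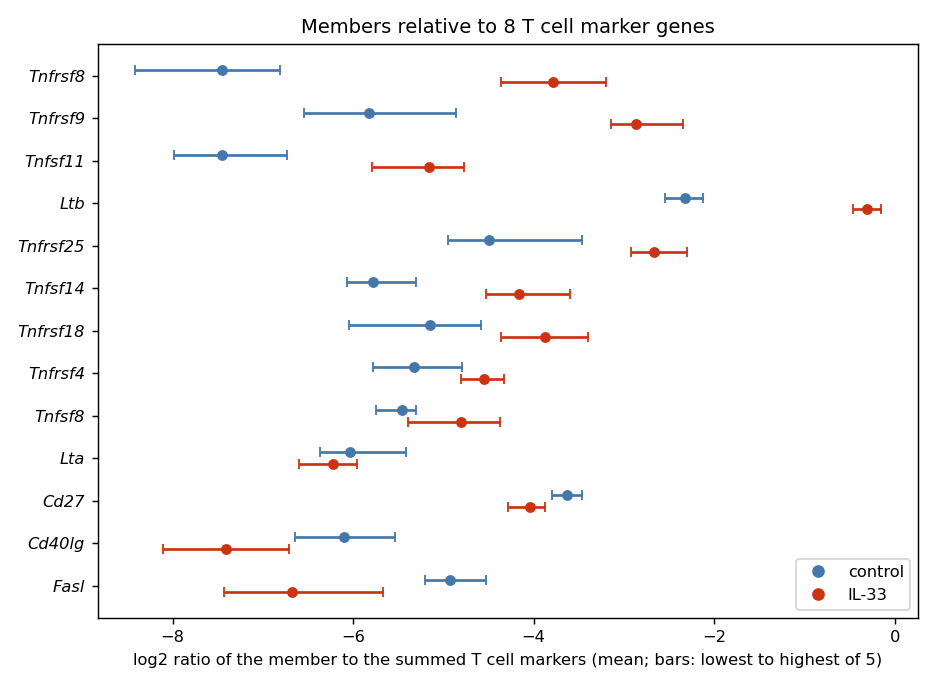
Log2 ratio of 13 members to the summed level of 8 T cell markers, as the mean of 5 libraries with bars from the lowest to the highest, control in blue and IL-33 in red. The upper 7 members are separate and higher after IL-33, by 1.27 to 3.67, and Cd27, Cd40lg and Fasl are separate and lower.

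Members known in macrophages were set against 8 macrophage and monocyte markers, whose sum was 3902 to 4221 CPM in controls and 1616 to 2301 CPM after IL-33, although 5 of the 8 rose and 3 fell. Lyz2, which is also made by alveolar epithelium, sets that sum, with 3739 ± 132 CPM in controls and 1413 ± 291 CPM after IL-33. Against such a falling sum 76.4% of all genes were higher and 1.91% lower without overlap. BAFF was higher by 2.72 (exact permutation, adjusted p = 0.0101), and by 1.14 with the mean log2 CPM of the markers in place of their sum, a setting under which it passed too. The sum gave Tnf 1.85, Tnfrsf1b 1.71, Tnfsf9 1.85 and Tnfsf12 1.49, all past the threshold, and with the mean log2 these were 0.27, 0.13, 0.27 and -0.09 and none passed. APRIL turned from 0.34 (not called) to -1.24, and was called higher at 0.55 when IL-33 library 3 was left out.

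The genes of the family lie in clusters, with 23 of the 41 within 500 kb of another member, 9 on chromosome 4 and 8 on chromosome 17. Neighbours did not always move together. Tnfrsf8 and Tnfrsf1b are 20.3 kb apart on the same strand, and their log2 fold changes were 5.09 and 0.68. Tnfsf8 and Tnfsf15 are 86.2 kb apart, at 1.84 and 0.03. On chromosome 1 Tnfsf4 (5.2) is followed by Tnfsf18, which did not pass the filter, and Fasl (-0.47). On chromosome 17 Ltb (3.15), Tnf (0.88) and Lta (1.05) lie with gaps of 3.06 and 1.16 kb, and all were called higher. Tnfrsf4 and Tnfrsf18 rose side by side, at 2.0 and 2.44. Cd27 (0.72) and Tnfrsf1a (-0.33) are 112 kb apart on chromosome 6 and moved in opposite directions.

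Genes that act downstream of the receptors were read from 4 lists. Of 23 receptor adaptors and proximal signalling genes, 14 rose and 4 fell, beside 35.1% of all genes higher and 34.8% lower. In either direction 18 were called, beside 69.9% of all genes. The median log2 fold change of the list was 0.30. Tnfaip3, the NF-kB-induced deubiquitinase A20 that restrains this signalling, rose most, from 45.7 ± 9.88 to 180.3 ± 30.3 CPM (log2 2.0, SE 0.17, edgeR adjusted p = 9.89e-08). Rnf31, the catalytic subunit of the linear ubiquitin ligase, fell most (-0.43, SE 0.07, edgeR adjusted p = 0.000188). Tab2, an adaptor of the kinase TAK1 and the most abundant of the list per kb, was not called (0.11, SE 0.04, edgeR adjusted p = 0.151), but was called higher with the length and GC correction (0.32, adjusted p = 0.00148). The linear ubiquitin partners Sharpin and Rbck1 rose, at 0.42 and 0.30, as did the deubiquitinases Cyld (0.75) and Otulin (0.89), while Ripk1 and Traf6 fell, at -0.39 and -0.31. These last 6 were chosen after their values were seen. The falls of Ripk1 and Traf6 were no longer called with the length and GC correction (log2 -0.12 and -0.046), which left 16 genes of the list higher and 1, Rnf31, lower.

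Of 14 death signalling genes 8 rose and 2 fell, beside 35.1% of all genes higher and 34.8% lower. The median was 0.27. Ripk3, the kinase of necroptosis, rose most, from 8.36 ± 0.764 to 29.5 ± 3.63 CPM (log2 1.84, SE 0.10, edgeR adjusted p = 3.18e-08). Xiap, an inhibitor of caspases, fell most, from 236 ± 17.5 to 116 ± 18 CPM (-1.0, SE 0.11, edgeR adjusted p = 1.04e-06). Casp8, the initiator caspase of death receptors and the most abundant per kb, rose by 0.25 (SE 0.09, edgeR adjusted p = 0.0165), a call that ended without control library 5 (adjusted p = 0.0601), without the low-count filter (0.0598) and with the length and GC correction (0.07). Cflar, the caspase 8 inhibitor c-FLIP, was the other gene that fell (-0.62, SE 0.10, edgeR adjusted p = 5.46e-05). The correction moved the values of Cflar to -0.25 and Xiap to -0.70, both still called, and gave 6 genes of the list higher and 3 lower.

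Of 9 tested genes for the shedding and trafficking of family members, 2 rose and 3 fell, with a median of 0.10. Of all genes 35.1% were higher and 34.8% lower. Furin, the protease that cleaves BAFF, APRIL and TWEAK, rose (0.70, SE 0.07, edgeR adjusted p = 6.67e-06). Timp3, the inhibitor of the TNF-releasing protease Adam17 and the most abundant of the list, fell from 1620.4 ± 259 to 606 ± 128 CPM (-1.4, SE 0.18, edgeR adjusted p = 2.7e-06). Adam17 was not called (0.10, SE 0.06, edgeR adjusted p = 0.18), but was called higher with the length and GC correction (0.33, adjusted p = 0.000553), by which 4 genes of the list were higher and 2 lower. Mmp7 had too few reads to be tested. Among 6 family genes that the symbol rule leaves out, Relt rose (1.55, SE 0.23, edgeR adjusted p = 2.32e-05), Eda, the ectodysplasin ligand of skin appendages, fell (-1.78, SE 0.20, edgeR adjusted p = 1.97e-06), and Ltbr, the lymphotoxin beta receptor and the most abundant of them, fell slightly (-0.21, SE 0.04, edgeR adjusted p = 0.00599). Edar, Eda2r and Ngfr were not called, so 1 of the 6 rose and 2 fell, beside the same shares of all genes. The medians of the first 3 lists lay above the -0.01 of all tested genes, and that of the family genes outside the rule, -0.23, below it.

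Across all tested genes log2 fold change fell with exon length (Spearman rho = -0.33 over 15695 genes, which are not independent replicates), so every member was also fitted with offsets that remove the trends on length and GC content. With them 20 members were called higher and 11 lower, in place of 23 and 7. The calls for Tnf, Tnfrsf13c and Tnfsf12 ended, and Cd40lg, Fasl, Tnfrsf12a and Tnfsf13 became lower. Among ligands that rose strongly, Ltb was 2.83, Tnfsf14 2.53, Tnfsf11 3.37 and Tnfsf4 4.78 after the correction. Among receptors the values were Tnfrsf8 5.1, Tnfrsf9 4.06, Tnfrsf25 2.87, Tnfrsf18 2.0 and Tnfrsf4 1.5, all called higher.

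**Figure D5:**
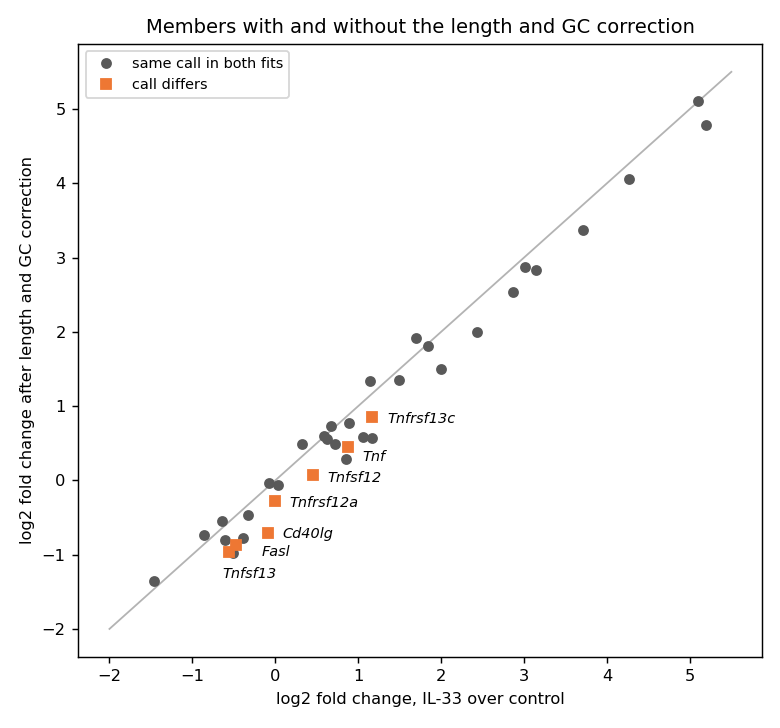
Log2 fold change of the 38 tested members without (horizontal axis) and with (vertical axis) a correction for exon length and GC content, with the line of equality. Orange squares mark the 7 members whose call differs, all with log2 values between -0.97 and 1.17, while members with larger changes kept their call, such as Tnfrsf4 at 1.5 in place of 2.0.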

How the data were processed

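RNA of BALB/c lungs was selected for polyA, made into 10 libraries with a strand-preserving kit and sequenced, per the labels' protocols. The submitters' processing notes name FastQC 0.11.6, MultiQC 1.6, STAR 2.5.4b, HTSeq 0.9.1 and GRCm38; for the annotation release, read length and strand setting of the counting, nothing is given in the sources used here. The deposited files hold raw counts of reads per gene made by the authors, with no normalization. Lines for reads without a gene were set aside before scaling and testing. Multiply aligned records made up 15.0% to 16.2% in controls and 19.97% to 22.8% in IL-33 libraries, unassigned ones 10.4% to 11.1% and 11.4% to 13.7%, and ambiguous ones 0.862% to 0.945% in all. Of 53465 identifiers, 53274 matched a symbol.

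Counts of the 10 libraries were fitted together by treatment in edgeR 4.0.16 (R 4.3.3), after filterByExpr (minimum count 10) and TMM scaling (0.969 to 1.03). Its quasi-likelihood test was adjusted by Benjamini-Hochberg over 15695 genes, with a threshold of 0.05. The common biological coefficient of variation was 0.136. Log2 fold changes are the fitted ones, while their SE was computed from log2(CPM + 0.1) over 5 and 5 libraries. Levels are CPM of counted reads. Per-kb levels, overlaps, positions and neighbours use exons of GENCODE M21 on GRCm38. Pair and marker ratios used two-sided exact permutation tests over 252 arrangements of the 10 labels with a pseudocount of 0.1 CPM. No 2 libraries of a group were alike within sampling noise (chi-square per degree of freedom 5.49 to 30.8). In 1 library 3 reads stand for 0.218 to 0.384 CPM, and intervals at the 95% level cover counting error only. The fit was tested on simulated data.

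Members, roles, pathway and marker lists, pairs and settings were chosen with earlier results of these data known. Values in every library are given for called members that averaged at least 1 CPM with a log2 fold change of at least 1 in size, and for the most abundant member of a role. Of each of 4 pathway lists the largest called rise, largest called fall and most abundant gene are named. Alternatives were other normalizations, filters, thresholds and tests (DESeq2 1.42.0 and limma-voom of limma 3.58.1), a replicate block, a length and GC correction, other pseudocounts and marker summaries, and leaving out each library.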

Additional observations from a re-analysis of the deposited data

Results flagged for a closer look

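In 5 of 76 groups of 5 libraries, 1 library stood apart from the other 4 by Dixon's test at the 95% level, a test that flags about 1 in 20 groups by chance. Tnfrsf9 read 41.9 CPM in IL-33 library 1, beside 20.5 to 24.6 CPM in the others. IL-33 library 2 was low for Tnfrsf14, at 4.79 CPM beside 8.52 to 9.94 CPM, and for Tnfrsf19, at 13.9 CPM beside 20.2 to 22.8 CPM. Tnfrsf26 read 15.2 CPM in IL-33 library 3, beside 9.90 to 11 CPM. In the controls, Tnfsf9 read 3.52 CPM in library 2, beside 0.944 to 1.57 CPM. Of these 5 genes only Tnfsf9 changed its call when that library was left out: it was then called higher after IL-33 by edgeR's quasi-likelihood test (log2 fold change 1.22, adjusted p = 0.0104).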

How the results depend on the processing

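All 30 called members kept their direction under 21 alternatives of the fit, and 18 of them also kept their call under each. Leaving out 1 library at a time gave 22 to 24 members higher, 6 to 9 lower, 10516 to 11089 called genes over all, 11 to 13 called pairs and 16 to 18 called marker ratios. Tested against a 1.5-fold change, 4741 genes were called in all and 16 members were higher and 2 lower, since the threshold is stricter. With the length and GC correction 11 members were lower. DESeq2 called 25 members higher and 7 lower, limma-voom 23 and 8. By other scalings the counts stayed at 23 and 7.

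Values near 0 turned sign. Cd40lg was 0.0025, 0.026 and 0.054 on the log2 scale without control library 1, IL-33 library 1 or IL-33 library 5, and down to -0.39 without another. Tnfrsf12a was 0.0016, 0.0047 and 0.051 without control library 2, IL-33 library 3 or IL-33 library 5. Tnfsf15 ranged from -0.070 to 0.125 with 1 library left out, and was -0.0016 without a filter and -0.066 after the length and GC correction. The log2 ratio Tnf/Tnfrsf1b was -0.19 with a pseudocount of 1 CPM and -0.084 without IL-33 library 3 (up to 0.29 with another left out). The log2 ratio Tnfsf13b/Tnfrsf13c ran from -0.014 without control library 1 to 0.62, and the log2 ratio Tnfsf13b/Tnfrsf13b was -0.14 without control library 1, -0.061 without IL-33 library 1 and 0.32 at most. With the mean log2 CPM of macrophage markers, Tnfsf13 was -1.24 and Tnfsf12 -0.089 relative to them; Lyz2 weighs less in that mean. For the other values the cause was not tested.

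Libraries of both groups carry the numbers 1 to 5. Deviations of libraries with the same number correlated at 0.23, 0.21, 0.06, -0.07 and 0.15, so the numbers were taken not to pair the libraries, and only number 1 correlated best with its own. With a replicate block 25 members were called higher and 8 lower, and 11122 genes for IL-33 against control over all genes. Depth limits Cd70, Tnfsf18, Tnfrsf17 and the controls of Tnfsf4, which rest on few reads.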

Other observations

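Other marker lists that bear on which cells the lungs held are given as values. Over 8 dendritic cell markers the sum was 141 to 170.2 CPM in controls and 303 to 349.6 CPM after IL-33, with 5 higher and 2, Zbtb46 and Clec9a, lower. Itgax made up most of the sum after IL-33, at 213 ± 16.9 CPM beside 62.4 ± 5.03 CPM in controls (SD, n = 5 each). The 6 eosinophil markers summed to 14.9 to 17.5 CPM in controls and 64.6 to 83.8 CPM after IL-33. Of these 5 rose and 1, Siglecf, which alveolar macrophages also express, fell, and Epx, Prg2 and Ear6 were at 0 in some control libraries. All 6 neutrophil markers rose, from 55.4 to 164 CPM in controls to 319 to 515 CPM after IL-33, with Ly6g and Camp at 0 in some controls. Mast cell and basophil markers summed to 3.94 to 7.05 CPM in controls and 12.8 to 15.6 CPM after IL-33, with 2 of 4 tested higher. For 6 airway markers the sum was 18376 to 21147 CPM in controls and 11536 to 13022 CPM after IL-33, with 2 higher and 3 lower. The 8 markers of fibroblasts and smooth muscle summed to 2849.5 to 3548 CPM in controls and 3437 to 4629 CPM after IL-33, with 4 higher and 4 lower. The part of any of these cell types in the levels of the TNF superfamily was not tested.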
